A study of Mus musculus with 16 samples.

Results

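The genes described here encode the extracellular ligands and receptors of axon guidance and cell repulsion: ephrins and Eph receptors, semaphorins with their plexin and neuropilin receptors, Slits with Robo receptors, and netrins with Unc5 receptors. They were chosen by gene symbol alone, from names of the form *Efna*, *Efnb*, *Epha*, *Ephb*, *Sema*, *Plxna* to *Plxnd*, *Nrp*, *Slit*, *Robo*, *Ntn* and *Unc5* followed by their member number or letter, and 64 of the 15451 genes with a deposited gene value matched. These comprised 34 ligand genes and 30 receptor genes. 4 further symbols (*Epha6*, *Ntn5*, *Plxnb3* and *Robo3*) appeared in the deposited TPM table (abundance scaled for transcript length and library size) alone, where none exceeded 1.19 TPM in any library, and they were not tested.

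The libraries came from 8 mouse embryos at E11.5, and both the mandible and the frontonasal prominence (FNP, the medial and lateral nasal processes) of each were sequenced, giving 16 bulk RNA libraries. The 4 mutants had the genotype *Srf* flox/flox; *Wnt1-Cre* (embryos 3, 4, 5 and 6), in which Cre is driven in the neural crest. *Srf*, encoding serum response factor, is thereby lost from cells of the crest lineage, mesenchyme among them. It is kept in ectoderm, endothelium and other cells outside that lineage in the same dissection. The 4 controls were not of one genotype: *Srf* flox/+; *Wnt1-Cre* embryos (1 and 7) stood beside Cre-free ones, of which embryo 2 carried a pair of floxed *Srf* alleles (flox/flox) and embryo 8 a single one (flox/+). Embryos 6, 7 and 8 came from the second litter and embryos 1 to 5 from the first, which left 1 mutant and 2 controls for the second. In the text, mutant libraries are given in the order of embryos 3, 4, 5 and 6 and control libraries in the order of embryos 1, 2, 7 and 8.

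Ephrins are membrane-bound ligands that signal through Eph receptor tyrosine kinases on neighbouring cells, and the ephrin-bearing cell can signal in return. This contact-dependent exchange sorts cells and sets tissue boundaries, and *Efnb1* is needed for normal frontonasal development in mouse and human. Secreted class 3 semaphorins act mainly through neuropilin and plexin complexes, whereas the transmembrane and GPI-anchored semaphorins bind plexins directly. Slits repel through Robo receptors, and netrins attract or repel depending on whether Dcc or Unc5 receptors are present. All of these pathways end on the actin cytoskeleton, and they guide migrating neural crest cells, blood vessels and cranial nerves in the embryonic face.

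SRF binds DNA at the CArG box, so the promoters of the guidance genes were searched for its consensus, by name and on both strands, to show which members carry the sequence at a start site. Promoters were 300 bases long, 250 before to 50 after each RefSeq start site (build GRCm38.p6), and 55 of the 64 genes had one. Only *Robo1* and *Sema4d* held a CArG box (2 of 55 genes, 3.64%), against 488 of 27025 genes in the whole promoter table (1.81%). The *Robo1* promoter was at chr16:72662899-72663198 on the plus strand, and the *Sema4d* promoter at chr13:51748761-51749060 on the minus strand. Both lay inside the span that GENCODE vM21 gives to the gene, *Robo1* on chromosome 16 from 72308306 to 73046095 and *Sema4d* on chromosome 13 from 51685529 to 51793747, and so at internal start sites. They are printed 5′ to 3′ with the CArG box in capitals.
Robo1 promoter: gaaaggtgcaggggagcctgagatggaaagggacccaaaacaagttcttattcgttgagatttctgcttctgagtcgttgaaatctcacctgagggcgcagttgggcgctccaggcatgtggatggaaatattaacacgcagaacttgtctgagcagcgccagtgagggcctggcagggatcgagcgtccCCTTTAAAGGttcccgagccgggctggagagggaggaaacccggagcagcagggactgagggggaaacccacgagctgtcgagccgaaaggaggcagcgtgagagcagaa
Sema4d promoter: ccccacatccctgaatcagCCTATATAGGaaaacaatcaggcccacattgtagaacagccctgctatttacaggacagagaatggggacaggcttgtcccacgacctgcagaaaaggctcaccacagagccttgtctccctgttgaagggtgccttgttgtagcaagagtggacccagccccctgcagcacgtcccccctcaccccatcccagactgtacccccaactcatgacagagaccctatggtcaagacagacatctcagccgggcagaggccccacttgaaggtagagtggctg
The box began 60 bases before the start site in *Robo1* and 231 bases before it in *Sema4d*. For comparison, stretches of up to 50 bases around the boxes are shown for *Actg1*, which encodes cytoplasmic gamma-actin, and for *Srf* itself, whose promoter held a pair of them.
Actg1, chr11:120348556-120348605, minus strand: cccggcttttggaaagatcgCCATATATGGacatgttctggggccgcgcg
Srf first box, chr17:46556215-46556264, minus strand: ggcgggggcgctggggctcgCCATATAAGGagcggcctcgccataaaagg
Srf second box, chr17:46556195-46556244, minus strand: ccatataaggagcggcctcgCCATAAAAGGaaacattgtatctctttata
A match describes these letters only. The other 53 members with a promoter held no such sequence within the 300 bases searched.

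The labels held in the data. *Srf* had 11.6, 14.1, 12.5 and 10.8 TPM in the mutant mandibles, against 48.1, 65.9, 34.4 and 56.9 TPM in the control mandibles, and 11.8, 14.7, 13.2 and 13.1 TPM in the mutant FNPs, against 48.9, 75.2, 34.7 and 56.5 TPM in the control FNPs. *Actg1* averaged 1087 ± 72.2 TPM in mutant mandibles and 2909 ± 249 TPM in control mandibles, and 1170.0 ± 59.3 TPM in mutant FNPs and 2971 ± 297 TPM in control FNPs (SD, n = 4 each). For both genes and in both tissues the 4 mutant libraries lay below the 4 control libraries (exact permutation test, two-sided, p = 0.0286, the smallest value that 70 arrangements can give). *Hand2*, a mandibular transcription factor, had 167 to 206 TPM (median 179.56) in mandibles, against 0.00 to 1.36 TPM (median 0.423) in FNPs, and *Six3*, a forebrain and placode factor, had 0.00 to 0.209 TPM (median 0.0661) in mandibles, against 21.3 to 29.4 TPM (median 25.9) in FNPs. Library totals of the deposited gene values ran from 10226942 to 11185674.

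The 64 guidance genes with a deposited gene value had means of 0.23 TPM and above. Gene values were given for 15451 genes, against 35639 with TPM, so the set was already limited and its detection is not a result. Over the 16 libraries 14 genes had a mean above 50 TPM, 31 lay between 5 and 50 TPM, and 19 were below 5 TPM. *Plxnb2*, a receptor for class 4 semaphorins, was the most abundant at a mean of 115 TPM, followed by the secreted ligand *Sema3f* (106 TPM) and by *Ephb4* (96.1 TPM), the receptor for ephrin-B2 on venous endothelium. The highest members of the other families were *Efnb2* (76.9 TPM) and *Efna2* (69.99 TPM) among ephrins, *Robo1* (74.6 TPM), the Eph receptor *Epha4* (65.8 TPM), the transmembrane semaphorin *Sema4c* (54.3 TPM), *Unc5b* (35.6 TPM), *Nrp2* (34.2 TPM), *Ntn3* (23.2 TPM) and *Slit2* (13.5 TPM). Slits as a family were low beside their receptors. The 3 Slit genes summed to 29.2 ± 1.94 TPM in mutant and 27.3 ± 2.27 TPM in control mandibles, and 26.1 ± 3.66 TPM in mutant and 23.5 ± 4.14 TPM in control FNPs (SD, n = 4 each). The 3 Robo genes summed to 108 ± 14.7 TPM in mutant and 105 ± 16.9 TPM in control mandibles, and 106 ± 15.3 TPM in mutant and 101 ± 22.8 TPM in control FNPs (SD, n = 4 each). 62 of the 64 genes passed the filter for testing, which required gene values of 10 or more in 4 or more libraries. The 2 that did not were *Epha10* and *Unc5a*, with means of 0.23 and 0.557 TPM.

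The first question was which guidance genes distinguish mandible from FNP. Of the 62 genes tested, 18 were higher and 13 lower in mandible by limma on log2 of the gene value plus 0.5 (Benjamini-Hochberg adjustment over all 14630 genes, threshold 0.05). Among all genes tested, 11.9% were called higher and 17.8% lower. The median log2 fold change of the members was -0.01, against 0.00 over all genes. For 12 of the 62 members the gene value of every mandible library lay beyond that of every FNP library, 6 on each side, against 8.96% of all genes. Each family except the Robo receptors held at least 1 called member, and in 8 of the 12 families calls ran in both directions.

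**Figure D1:**
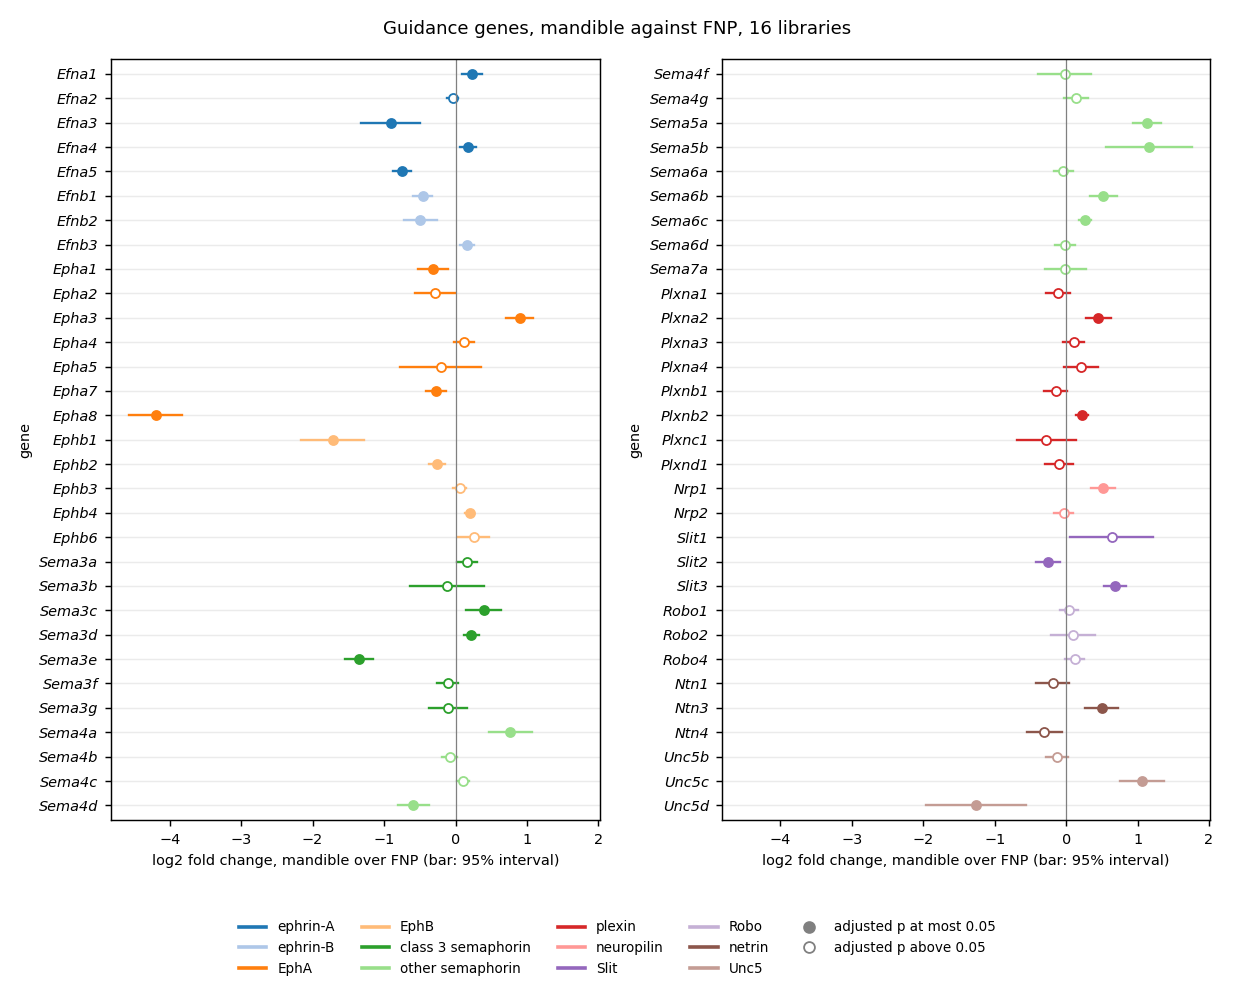
Log2 fold change of each of the 62 tested guidance genes, mandible over FNP, with its 95% interval, from all 16 libraries. Colours give the gene family and filled points an adjusted p of at most 0.05 (limma, Benjamini-Hochberg). *Epha8* stands furthest to the FNP side at -4.20, and *Sema5b*, *Sema5a* and *Unc5c* furthest to the mandible side at 1.16, 1.14 and 1.06.

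Of the 8 ephrin ligands 4 were lower and 3 higher in mandible. *Efna5*, a GPI-anchored ephrin, had 30.8, 36.7, 28.7 and 28.7 TPM in mutant mandibles and 28.6, 28.7, 27.7 and 32.4 TPM in control mandibles. In FNPs it had 55.6, 50.1, 52.8 and 54.2 TPM in mutants and 42.3, 43.9, 52.3 and 57.9 TPM in controls. The mandible and FNP libraries did not overlap, and the log2 fold change was -0.75 ± 0.06 (SE; limma, Benjamini-Hochberg adjusted p = 5.9e-08). *Efnb1* had 64.3, 50.3, 50.1 and 62.7 TPM in mutant mandibles and 48.2, 45.9, 65 and 60.4 TPM in control mandibles. In FNPs it had 81.1, 66.4, 75 and 80.1 TPM in mutants and 71, 68.5, 93.9 and 77.3 TPM in controls, again without overlap, and its log2 fold change was -0.46 ± 0.06 (SE; limma, adjusted p = 2.35e-05). *Efnb2* ranged from 52.4 to 78.1 TPM (median 60.7) in mandibles, against 75.7 to 130.46 TPM (median 84.3) in FNPs, and was lower in mandible in 7 of 8 embryos (log2 fold change -0.50; limma, adjusted p = 0.00213). *Efna3* was the least abundant of the called ephrins, at 1.31 to 3.99 TPM (median 2.72) in mandibles, against 3.23 to 6.48 TPM (median 4.33) in FNPs, with a log2 fold change of -0.91 (limma, adjusted p = 0.00168). The ephrins *Efna1*, *Efna4* and *Efnb3* were the 3 higher in mandible, with log2 fold changes of 0.23, 0.18 and 0.16, while *Efna2* at -0.04 did not pass.

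Of the 4 called ephrin-A genes, 3 are neighbours that did not share a direction. *Efna1*, *Efna3* and *Efna4* lie in a row on the minus strand of chromosome 3 (GRCm38), *Efna1* at 89271733 to 89281142, *Efna3* at 89313899 to 89322965 and *Efna4* at 89333390 to 89338028. Gaps of 32.8 kb and 10.4 kb separate them, and the middle gene was lower in mandible while both flanking genes were higher. *Epha8* and *Ephb2*, 93.4 kb apart on chromosome 4, were both lower in mandible. On chromosome 5, *Sema3d*, *Sema3a* and *Sema3e* follow each other at gaps of 536.5 and 422.7 kb, with log2 fold changes of 0.22, 0.16 and -1.35. The value for *Sema3a* was positive in 8 of 8 embryos and did not pass the test (limma, adjusted p = 0.0837), but it passed with embryo as a block (adjusted p = 0.00948), as did *Sema4c* and *Sema4g*, while no call was lost.

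Eph receptors showed the widest spread. *Epha8*, a receptor for A-type ephrins found mainly in the nervous system, had 0.298, 0.24, 0.261 and 0.291 TPM in mutant mandibles and 0.125, 0.117, 0.225 and 0.295 TPM in control mandibles. In FNPs it had 5.13, 3.79, 3.14 and 7.22 TPM in mutants and 2.26, 2.25, 8.77 and 5 TPM in controls. The highest mandible library, at 0.298 TPM, was far below the lowest FNP library, at 2.25 TPM, and the log2 fold change was -4.20 ± 0.18 (SE; limma, Benjamini-Hochberg adjusted p = 9.04e-12). *Ephb1*, a receptor for B-type ephrins, also did not overlap between the tissues, at 0.77 to 2.5 TPM (median 1.25) in mandibles, against 3.02 to 5.67 TPM (median 4.46) in FNPs, with a log2 fold change of -1.72 ± 0.21 (SE; limma, adjusted p = 5.53e-06). *Epha3* went the other way. It had 46.3, 30.7, 26.6 and 46.8 TPM in mutant mandibles and 25.6, 24.7, 40.1 and 41 TPM in control mandibles, with 18.9, 18.2, 16.5 and 24.4 TPM in mutant FNPs and 16.8, 14.6, 18.9 and 19.9 TPM in control FNPs. The mandible libraries were all higher but also more dispersed, and the log2 fold change was 0.90 ± 0.09 (SE; limma, adjusted p = 3.65e-07). Smaller differences were called for *Epha1* (-0.32), *Epha7* (-0.27), *Ephb2* (-0.26) and *Ephb4* (0.20). *Epha4* and *Ephb3*, although abundant, differed by 0.12 and 0.06 on the log2 scale and did not pass.

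**Figure D2:**
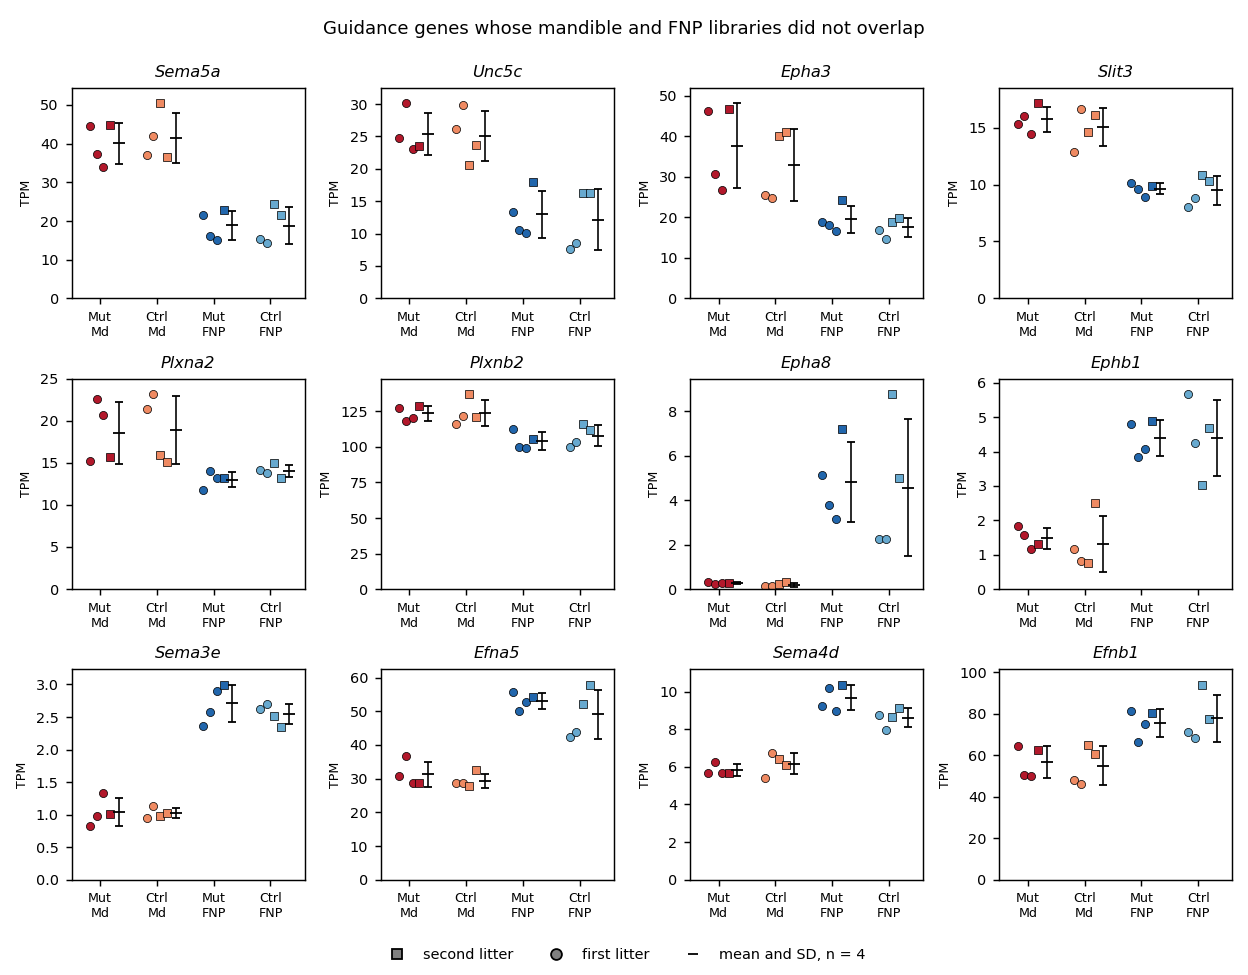
TPM in each library of the 12 guidance genes whose mandible (Md) and FNP libraries did not overlap in gene value (in TPM those of *Plxnb2* meet), for mutants (Mut) and controls (Ctrl). Squares are second-litter and circles first-litter embryos, and bars give the mean and SD of 4 libraries. The upper 6 genes, *Sema5a* to *Plxnb2*, are higher in mandible and the lower 6, *Epha8* to *Efnb1*, are higher in FNP, in mutants and controls alike.

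Among the semaphorins, the called transmembrane members were higher in mandible with 1 exception. *Sema5a*, a transmembrane semaphorin with thrombospondin repeats, had 44.4, 37.2, 33.9 and 44.7 TPM in mutant mandibles and 37, 42, 50.4 and 36.7 TPM in control mandibles. In FNPs it had 21.4, 16.2, 15 and 22.8 TPM in mutants and 15.3, 14.2, 24.3 and 21.6 TPM in controls. The lowest mandible library was above the highest FNP library, and the log2 fold change was 1.14 ± 0.09 (SE; limma, Benjamini-Hochberg adjusted p = 4.4e-08). Its paralogue *Sema5b* had a similar log2 fold change of 1.16 at a much lower level, 0.996 to 2.24 TPM (median 1.52) in mandibles, against 0.356 to 1.95 TPM (median 0.625) in FNPs, and the libraries overlapped. *Sema4a*, *Sema6b* and *Sema6c* were higher in mandible in 8 of 8 embryos each, with log2 fold changes of 0.77, 0.52 and 0.26. The exception was *Sema4d*, a plexin-B1 ligand, at 5.4 to 6.75 TPM (median 5.89) in mandibles, against 7.96 to 10.3 TPM (median 9.05) in FNPs (log2 fold change -0.59 ± 0.10, SE; limma, adjusted p = 0.000263). Of the secreted class 3 genes, *Sema3e*, a ligand of plexin-D1 in vessel patterning, was the most divided. It had 0.822, 0.983, 1.33 and 1 TPM in mutant mandibles and 0.941, 1.13, 0.986 and 1.03 TPM in control mandibles, with 2.37, 2.58, 2.89 and 2.99 TPM in mutant FNPs and 2.62, 2.71, 2.52 and 2.35 TPM in control FNPs. The log2 fold change was -1.35 ± 0.09 (SE; limma, adjusted p = 4.33e-09), while *Sema3c* and *Sema3d* were higher in mandible by 0.40 and 0.22.

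Of the 10 semaphorin receptors 3 were higher in mandible and none was lower. *Plxna2* had 15.1 to 23.2 TPM (median 18.3) in mandibles, against 11.8 to 14.9 TPM (median 13.5) in FNPs, without overlap (log2 fold change 0.45 ± 0.08, SE; limma, Benjamini-Hochberg adjusted p = 0.00046). *Plxnb2* had 116 to 137 TPM (median 121) in mandibles, against 99.4 to 116 TPM (median 105) in FNPs, and its log2 fold change of 0.23 ± 0.04 (SE; limma, adjusted p = 0.000261) had one direction in all 8 embryos. *Nrp1*, a co-receptor shared by class 3 semaphorins and VEGF, was higher in mandible in 8 of 8 embryos by 0.52 (limma, adjusted p = 6e-05), whereas *Nrp2* at -0.04 was not called. The other 6 plexins, *Plxna1*, *Plxna3*, *Plxna4*, *Plxnb1*, *Plxnc1* and *Plxnd1*, had log2 fold changes between -0.28 and 0.21, none of which passed.

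Slits and Unc5 receptors diverged within each family. *Slit3* had 15.3, 16, 14.5 and 17.1 TPM in mutant mandibles and 12.9, 16.6, 14.7 and 16.1 TPM in control mandibles, with 10.2, 9.64, 8.95 and 9.85 TPM in mutant FNPs and 8.07, 8.82, 10.8 and 10.3 TPM in control FNPs. Its libraries did not overlap between tissues, and the log2 fold change was 0.69 ± 0.07 (SE; limma, Benjamini-Hochberg adjusted p = 1e-06). *Slit2* was lower in mandible, with a log2 fold change of -0.26 (limma, adjusted p = 0.0188), and the 3 Robo receptors lay between 0.04 and 0.12 with none called. *Unc5c*, a repulsive netrin receptor, had 24.7, 30.1, 23.1 and 23.6 TPM in mutant mandibles and 26.1, 29.8, 20.6 and 23.7 TPM in control mandibles. In FNPs it had 13.3, 10.6, 10.02 and 17.9 TPM in mutants and 7.65, 8.51, 16.3 and 16.3 TPM in controls, and the log2 fold change was 1.06 ± 0.15 (SE; limma, adjusted p = 2.47e-05). *Unc5d* was lower in mandible in 8 of 8 embryos (log2 fold change -1.26), at 0.0971 to 0.718 TPM (median 0.371) in mandibles, against 0.428 to 1.28 TPM (median 0.96) in FNPs. *Unc5b*, the most abundant Unc5 gene, was not called at -0.13. Of the netrins, *Ntn3* was higher in mandible by 0.50 (limma, adjusted p = 0.0018), and *Ntn1* and *Ntn4* at -0.19 and -0.30 did not pass.

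The tissue difference was also measured within each genotype. In mutants, 12 members were higher and 8 lower in mandible of 62 tested, and 15.9% of all genes were called in either direction. In controls, 12 were higher and 7 lower, and 17.7% of all genes were called. 15 members were called in both genotypes, 75% of those called in mutants and 78.9% of those called in controls, and all 15 kept their direction. No share over all genes was set beside this overlap, so it is not read as particular to the guidance genes. *Epha8* had a log2 fold change of -4.01 in mutants and -4.38 in controls, *Sema5a* 1.11 and 1.16, *Sema3e* -1.39 and -1.31, and *Slit3* 0.71 and 0.66. With 1 embryo fewer, counts within a genotype were as low as 11 in mutants (without embryo 4) and 12 in controls (without embryo 2), and they were 12 in mutants without embryo 5 or embryo 6. Calls over all genes fell as well. In mutants 471 were higher and 787 lower of 13818 without embryo 4, against 892 and 1369 of 14226 with all 4. In controls 605 were higher and 1037 lower of 13813 without embryo 2, against 878 and 1628 of 14159 with all 4.

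RNA of cell type markers differed between the dissections, and in bulk tissue a change in the number of cells of a type cannot be told apart from a change in RNA per cell. Of 11 tested neuronal markers 9 were lower in mandible, and the 12 listed markers summed to 25.2 to 33.3 TPM in mandibles, against 105.6 to 201.8 TPM in FNPs. Of 10 markers of neural progenitors and olfactory placode 9 were lower in mandible and 1 was higher, with sums of 29.4 to 44.2 TPM in mandibles, against 112.1 to 204.2 TPM in FNPs. Surface ectoderm markers ran in both directions, 3 higher and 8 lower of 11, and 7 of 8 tested skeletal muscle markers were higher in mandible. Markers of neural crest mesenchyme also ran in both directions, 3 higher and 6 lower in mandible of 10. They summed to 1608 to 1858 TPM in mandibles and 1862 to 2412 TPM in FNPs. For comparison, 11.9% of all genes were called higher and 17.8% lower in mandible. No listed marker was at 0 in every library of a group. The part of these cell types in the differences of the guidance genes was not tested.

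The second question was whether loss of *Srf* in the neural crest changed these genes. With both tissues in one model and tissue and litter as covariates, none of the 62 members was called by limma at an adjusted p of at most 0.05, against 1.33% of all genes (195 of 14630, of which 43 were higher and 152 lower in mutants). The count over all genes was 43 without embryo 1, 41 without embryo 2, 67 without embryo 4 and 367 without embryo 6, and it was 113 with embryo as a random block and 20 with both tissues of an embryo averaged. At an unadjusted p under 0.05 there were 11 members (10 higher and 1 lower in mutants), against 17.4% of all genes. The smallest adjusted p was 0.0955. The members' median log2 fold change was 0.09, against 0.00 over all genes, and 42 of 62 were positive, against 50.7% of all genes. With libraries scaled to equal totals these medians were 0.13 and 0.04, and the calls over all genes became 107 higher and 96 lower, with none among the members. Without the litter term the members' median was 0.04. In that fit 2 members had an unadjusted p under 0.05 by limma, against 1049 of 14630 genes. For 53 of the 62 members the 95% interval of the genotype effect lay within 1.5-fold in either direction. These intervals count both tissues of an embryo as separate libraries, and intervals with the tissues averaged are not given. *Srf* itself had a log2 fold change of -2.06 ± 0.14 and *Actg1* of -1.42 ± 0.03 in the same fit (SE; limma, Benjamini-Hochberg adjusted p = 8.48e-08 and 2.02e-14).

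**Figure D3:**
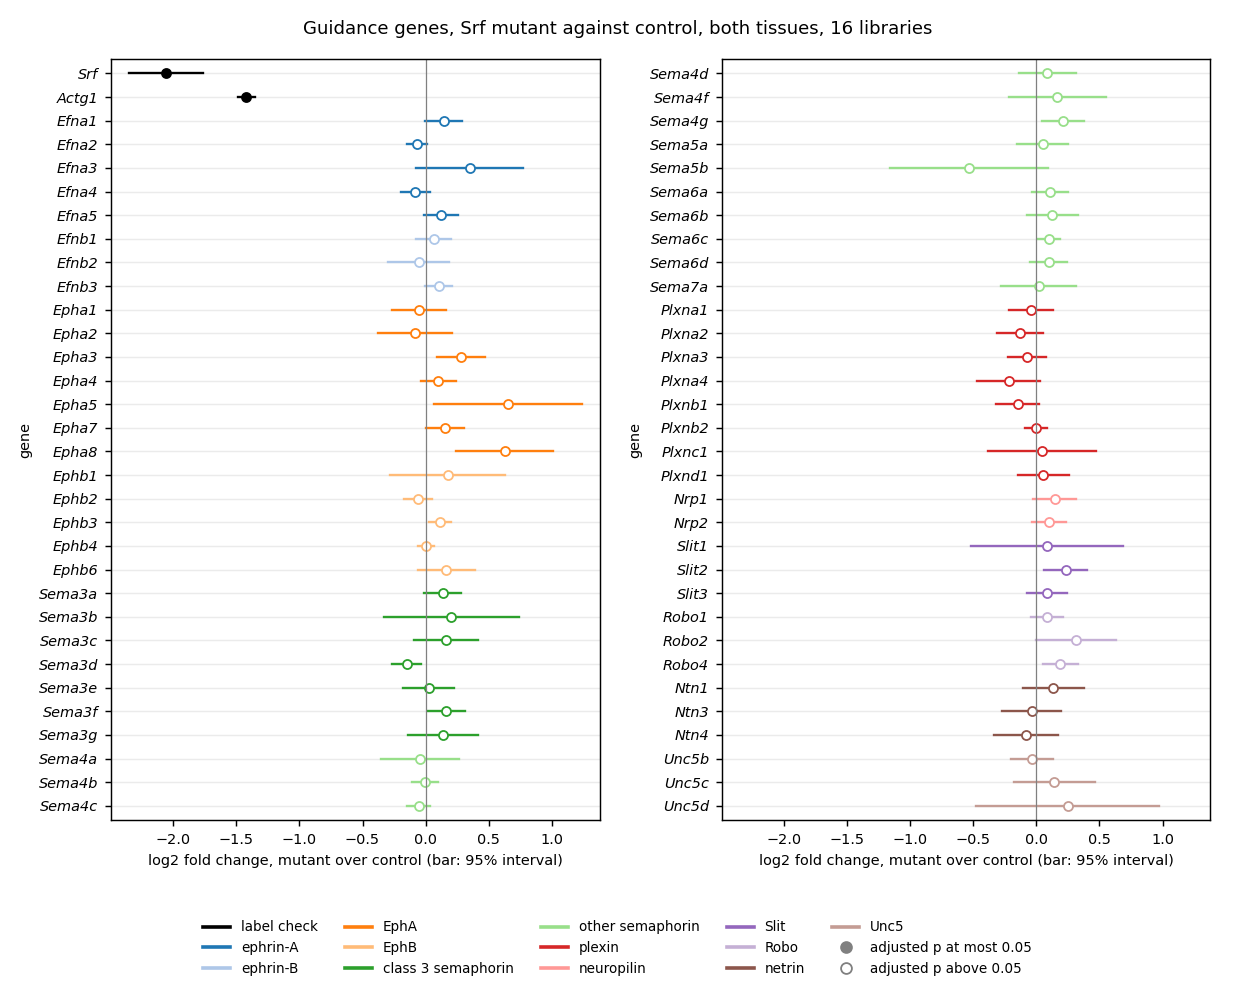
Log2 fold change of each tested guidance gene, mutant over control, with its 95% interval, from all 16 libraries. *Srf* and *Actg1* are drawn at the top left as a check of the labels at -2.06 and -1.42. No guidance gene has a filled point, and most intervals include 0.

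The 6 members with the smallest p were *Epha8*, *Epha3*, *Slit2*, *Robo4*, *Sema3d* and *Ephb3*. *Epha8* had 0.298, 0.24, 0.261 and 0.291 TPM in the mutant mandibles, against 0.125, 0.117, 0.225 and 0.295 TPM in the control mandibles, and 5.13, 3.79, 3.14 and 7.22 TPM in the mutant FNPs, against 2.26, 2.25, 8.77 and 5 TPM in the control FNPs. The genotypes overlapped in both tissues, with the second-litter control embryo 7 the highest of all in FNP, and the log2 fold change was 0.63 ± 0.18 (SE; limma, adjusted p = 0.0955). It was called without embryo 6 (log2 fold change 0.91; limma, adjusted p = 0.0338), without embryo 7 (0.71; adjusted p = 0.0461) and within the first litter alone (0.91; adjusted p = 0.0299), and in none of the other alternatives. *Epha3* differed by 0.28 ± 0.09 (SE; limma, adjusted p = 0.136), and the order of its libraries is in the values above: embryo 3 and the second-litter embryos were the high ones in mandible, whatever their genotype.

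The secreted repellent *Slit2* had 12.2, 13.2, 11.8 and 13.4 TPM in the mutant mandibles, against 10.9, 12.7, 12 and 10.7 TPM in the control mandibles, and 14.1, 15.5, 13.5 and 21 TPM in the mutant FNPs, against 11.7, 10.5, 15.9 and 16.1 TPM in the control FNPs. Mutant embryo 6 was the highest FNP and the ranges overlapped (log2 fold change 0.23 ± 0.08, SE; limma, Benjamini-Hochberg adjusted p = 0.156). *Robo4*, a Robo receptor of endothelium, had 8.2, 6.27, 7.12 and 8.36 TPM in the mutant mandibles, against 5.76, 6.32, 8.61 and 8.27 TPM in the control mandibles, and 7.16, 7.32, 6.95 and 7.59 TPM in the mutant FNPs, against 5.52, 5.39, 7.14 and 7.23 TPM in the control FNPs. The control libraries of embryos 1 and 2 were the lowest in FNP and those of embryos 7 and 8 were within the mutant range (log2 fold change 0.19 ± 0.07, SE; limma, adjusted p = 0.157). The 12 endothelial markers summed to 233.9 to 265.5 TPM in mutant and 223.2 to 248.8 TPM in control mandibles, and to 238.8 to 262.5 TPM in mutant and 213.7 to 251.4 TPM in control FNPs, and their part in the *Robo4* values was not tested. *Sema3d*, a class 3 semaphorin, was the 1 member with an unadjusted p under 0.05 in the negative direction, with a log2 fold change of -0.15 ± 0.05 (SE; limma, adjusted p = 0.166). *Ephb3* differed by 0.11 ± 0.04 (SE; limma, adjusted p = 0.18). *Efnb1*, needed for normal frontonasal development, differed by 0.06, with a 95% interval of -0.07 to 0.20. A change of 1.5-fold lay outside that interval in the fit over libraries. The CArG-bearing genes differed by 0.08 (95% interval -0.05 to 0.21) for *Robo1* and 0.08 (-0.14 to 0.31) for *Sema4d*.

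**Figure D4:**
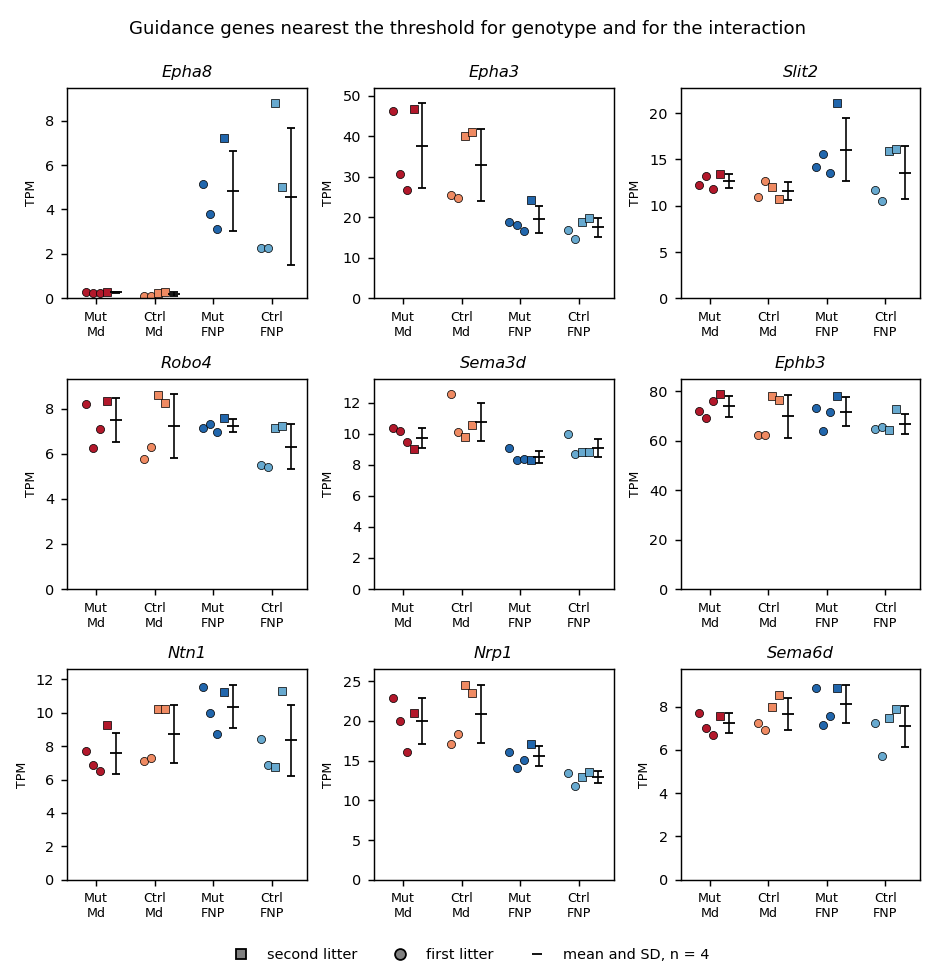
TPM in each library of the 6 guidance genes with the smallest p for genotype and the 3 with the smallest p for the tissue by genotype interaction (bottom row). Squares are second-litter and circles first-litter embryos, and bars give the mean and SD of 4 libraries (Md, mandible). For 4 of the 9 genes (*Epha3*, *Epha8*, *Robo4* and *Sema6d*) control means of squares and circles are further apart than mutant and control means in both tissues. For the others this holds in 1 tissue only. The litter means rest on 2 control libraries each and the genotype means on 4, so the gaps are not of equal precision.

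Within mandible alone, limma called 0 of 62 members, against 0.1% of all genes, with 5 members at an unadjusted p under 0.05, all higher in mutants, against 7.2% of all genes. Within FNP alone it called 0 of 61, against 0.106%, with 12 members at an unadjusted p under 0.05 (11 higher and 1 lower in mutants), against 13.7%. *Nrp1* and *Sema4d* were the 2 genes whose 4 mutant FNP libraries all had higher gene values than the 4 control FNP libraries, against 1.56% of all genes. No member separated in the other direction in FNP (1.62% of all genes), or in either direction in mandible (1.37% of all genes higher and 0.957% lower). *Nrp1* had 22.9, 19.96, 16 and 21 TPM in the mutant mandibles, against 17.2, 18.4, 24.6 and 23.5 TPM in the control mandibles, and 16.1, 14.1, 15 and 17 TPM in the mutant FNPs, against 13.4, 11.8, 13 and 13.6 TPM in the control FNPs. Its log2 fold change was 0.01 in mandible and 0.28 in FNP. *Sema4d* had 9.24, 10.2, 8.97 and 10.3 TPM in the mutant FNPs, against 8.74, 7.96, 8.64 and 9.12 TPM in the control FNPs, which overlapped in TPM, and its log2 fold change was -0.05 in mandible and 0.22 in FNP. A two-sided exact permutation test on mean TPM, run for 32 named members in each tissue without adjustment, reached its smallest p of 0.0286 for *Nrp1* in FNP and stayed above 0.05 in the other 63 tests.

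The difference between the tissues in their genotype effect, mandible minus FNP, was tested as an interaction. Limma called 0 of 62 members and 0 of 14630 genes, and 3 members had an unadjusted p under 0.05, against 4.36% of all genes. The 3 were *Ntn1*, *Nrp1* and *Sema6d*. *Ntn1*, a secreted netrin, had 7.68, 6.84, 6.54 and 9.28 TPM in the mutant mandibles, against 7.12, 7.29, 10.3 and 10.2 TPM in the control mandibles, and 11.6, 9.97, 8.72 and 11.3 TPM in the mutant FNPs, against 8.45, 6.85, 6.74 and 11.3 TPM in the control FNPs. Mutant means were below control means in mandible and above them in FNP, with overlapping libraries, and the interaction was -0.52 ± 0.19 (SE; limma, adjusted p = 0.999). The interaction was -0.32 ± 0.14 for *Nrp1* and -0.27 ± 0.12 for *Sema6d* (SE; limma, adjusted p = 0.999 for both).

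Of the marker lists for neurons, neural progenitors and placode, endothelium, surface ectoderm, skeletal muscle, neural crest mesenchyme, Schwann cell precursors, erythroid cells and macrophages, 1 macrophage gene was called higher in mutants and no other marker was called. The share called over all genes was 1.33%. The 7 erythroid genes summed to 9999.65 to 18093 TPM in mutant FNPs, against 9131 to 11347 TPM in control FNPs, and to 7995 to 16376 TPM in mutant mandibles, against 9469 to 12617 TPM in control mandibles. The median log2 fold change by genotype was 0.50 for skeletal muscle markers, 0.27 for erythroid genes and 0.20 for both macrophage and Schwann cell precursor markers. In FNP the 9 muscle markers summed to 8.84 to 13.1 TPM in mutants, against 5.09 to 10.8 TPM in controls, and the 8 macrophage markers to 26.6 to 32.4 TPM in mutants, against 19.4 to 28.1 TPM in controls. The part of these cells in the genotype values was not tested.

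A list of 50 genes that act downstream of or beside these receptors was set against the same tests. It held intracellular effectors such as collapsin response mediators (*Dpysl*, *Crmp1*), srGAPs, chimaerins and LIM kinases, and co-receptors such as *Dcc* and Flrt proteins. By genotype 0 of 48 tested were called by limma, with 4 at an unadjusted p under 0.05, *Dpysl4* (-0.18), *Flrt2* (0.23), *Crmp1* (-0.21) and *Flrt3* (0.16) on the log2 scale. Over all genes 1.33% were called by genotype and 17.4% had an unadjusted p under 0.05. Between tissues, 8 of the 48 were higher and 20 lower in mandible, against 11.9% and 17.8% of all genes. The 4 with the smallest adjusted p were *Srgap3*, a GTPase activator that binds Robo receptors (-1.47), *Dpysl5* (-1.79), the netrin receptor *Dcc* (-3.32) and the adhesion molecule *L1cam* (-1.99), all lower in mandible. *Dcc* had 0.0998 to 0.355 TPM (median 0.166) in mandibles, against 1.02 to 2.73 TPM (median 1.72) in FNPs.

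Litter, a covariate in the models above, separated more of these genes than genotype did in number of calls. This comparison was added after the data had been seen. With tissue and genotype in the model, 23 of 62 members were higher in the second than in the first litter and 0 were lower (limma, Benjamini-Hochberg), with 30 at an unadjusted p under 0.05, against 38.1% of all genes. Over all genes 10.9% were called higher and 15.2% lower, and the median log2 fold change was 0.16 for the members and -0.01 over all genes. With libraries scaled to equal totals, 31 members were higher and 0 lower, while the calls over all genes changed to 2610 higher and 1296 lower, compared with 1593 and 2231. With both tissues of an embryo averaged, so that the 8 embryos were the units, 15 members were higher and 0 lower, against 6.07% and 10.2% of all genes. That fit lost 9 of the 23 calls (*Efna3*, *Efnb1*, *Efnb3*, *Ephb3*, *Ntn3*, *Plxna3*, *Robo2*, *Sema5a* and *Unc5d*) and gained *Unc5c*, and no ephrin, plexin or netrin gene was called in it. The second litter held only 3 embryos.

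**Figure D5:**
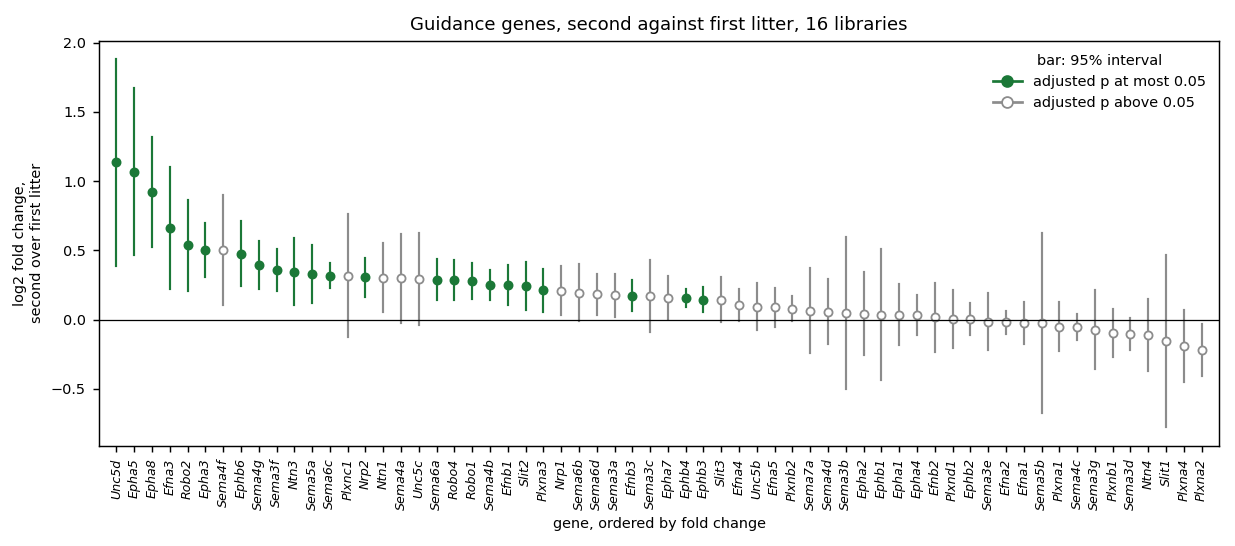
Log2 fold change of each tested guidance gene, second over first litter, with its 95% interval, ordered by size. Green filled points have an adjusted p of at most 0.05 (limma, Benjamini-Hochberg). All 23 filled points lie above 0, with *Unc5d*, *Epha5* and *Epha8* highest at 1.14, 1.07 and 0.92.

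In the fit that counts each library, called members came from every family, with 11 ligands and 12 receptors, and with tissues averaged per embryo from 8 of the 12 families. *Sema6c*, a transmembrane semaphorin, had the smallest p. In mandible it had 62.2 to 66.4 TPM in the second litter, against 49.3 to 59.1 TPM in the first, and in FNP 52.5 to 54.6 TPM in the second litter, against 39.9 to 47.8 TPM in the first. The litters did not overlap in either tissue, and the log2 fold change was 0.32 ± 0.04 (SE; limma, Benjamini-Hochberg adjusted p = 0.000151). *Ephb4* had 108 to 114 TPM in the second litter, against 92.7 to 103 TPM in the first in mandible, and 95.2 to 99.6 TPM in the second litter, against 82.6 to 87 TPM in the first in FNP, also without overlap, and its log2 fold change was 0.16 ± 0.03 (SE; limma, adjusted p = 0.00163). *Sema4b* was the third gene of this kind, at 0.25. 12 members had every second-litter library above every first-litter library in at least 1 tissue: 10 in FNP, against 6.3% of all genes, and 5 in mandible, against 5.51%. None had every second-litter library below, against 8.2% of all genes in FNP and 9.21% in mandible.

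Other members differed by more but overlapped. *Epha8* had 5 to 8.77 TPM in the second litter, against 2.25 to 5.13 TPM in the first in FNP (log2 fold change over both tissues 0.92 ± 0.19, SE; limma, adjusted p = 0.00227). *Epha3* had 40.1 to 46.8 TPM in the second litter, against 24.7 to 46.3 TPM in the first in mandible, where the first-litter maximum was mutant embryo 3 (log2 fold change 0.50). *Robo2*, a Slit receptor, had 25.5 to 27.9 TPM in second-litter mandibles, against 17.6 to 23.6 TPM in first-litter mandibles other than that of embryo 3. In FNP it had 23.9 to 32.1 TPM in the second litter, against 13.9 to 19.1 TPM in the first other than embryo 3. Embryo 3 was the highest of all embryos in both tissues, at 32.5 TPM in mandible and 33.5 TPM in FNP. Without embryo 3, 28 members were higher and 1 (*Plxna2*) was lower, against 13.9% and 16.6% of all genes. The log2 fold changes of *Sema3f*, *Sema4g* and *Nrp2* were 0.36, 0.39 and 0.31. In the fit over libraries all 3 Robo genes were called, *Robo1* at 0.28, *Robo2* at 0.54 and *Robo4* at 0.29, and with tissues averaged per embryo *Robo2* was not (limma, adjusted p = 0.0735).

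The litter difference was examined within each genotype and tissue. Among mutants, embryo 6 against embryos 3, 4 and 5, the median log2 fold change of the members was 0.13. Embryo 6 was the only mutant of the second litter, so no calls are given for that fit. Among controls, embryos 7 and 8 against embryos 1 and 2, 22 members were higher and 0 lower, against 10% and 14.4% of all genes, with a median of 0.21. That fit counted both tissues of an embryo as separate libraries, so its calls rest on fewer embryos than libraries. For *Sema6c* the log2 fold changes were 0.22 in mutants and 0.39 in controls, for *Epha3* 0.47 and 0.53, and for *Epha8* 0.47 and 1.26. The difference between genotypes was not tested. In FNP alone 10 members were higher and 0 lower, against 2.68% and 5.05% of all genes, and in mandible alone 3 were higher (*Epha5*, *Ntn1* and *Sema6c*) and 0 lower, against 1.49% and 2.88%. Counts with 1 embryo left out fell to 14 higher without embryo 1, against 6.26% of all genes, and 15 higher without embryo 8, against 6.05%. Of the marker lists, 2 of 8 skeletal muscle genes were higher in the second litter, 2 of 10 genes of neural progenitors and placode, 3 of 12 endothelial genes, 2 of 8 macrophage genes and 1 of 7 erythroid genes were lower, 2 of 11 surface ectoderm genes were higher and 3 lower, 2 of 10 genes of neural crest mesenchyme were higher and 1 lower, and no neuronal or Schwann cell precursor gene was called. These marker counts are from the fit over all libraries, in which 10.9% of all genes were called higher and 15.2% lower. The part of these cell types in the litter difference was not tested, and the labels give no feature of the litters beyond their order.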

How the data were processed

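Bulk polyA RNA libraries from 16 samples (8 embryos, mandible and FNP of each) were quantified by the authors with Salmon 1.5.0 on mm10 and summarised per gene with sleuth 0.30.0-4. The 2 deposited tables hold signal values rather than read counts: gene values scaled by the authors with size factors and gene length, and TPM scaled by size factors, with library sums of 920899 to 1069140. Sequencing depth therefore could not be read from the files, and no count model was used. Litter came from the deposited design table. No pair of libraries held identical values. The labels name separate embryos as replicates.

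Gene values were tested as log2(value + 0.5) with limma 3.58.1 in R 4.3.3 (moderated test, variance trend, Benjamini-Hochberg over all genes tested) for genes of at least 10 in at least 4 libraries. Litter was a covariate, and tissue where both tissues entered. Fold changes are on the log2(value + 0.5) scale and understate changes of low genes. Gene values are near-constant multiples of TPM for each gene, so levels between genes are given in TPM only. Scripts were tested on simulated data. Promoters came from RefSeq and gene positions from GENCODE vM21, both on GRCm38.

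The guidance genes, the effector list and the marker lists were chosen with earlier results of these data known. Genes with values in every library were those called by genotype or, as fewer than 6 were called, the 6 with the smallest p; those called between tissues without overlap of libraries (up to 8 each way); the 3 with the smallest interaction p; the most abundant of each family; and *Efnb1*. Others named, and the litter comparison, were chosen after their values were seen. Alternatives varied the pseudocount, filter, scaling, table, variance trend, litter term, controls and embryos. Same-numbered mandible and FNP samples were taken as the same embryo, from their labels. Their deviations from group means correlated at 0.0993 to 0.234 within embryos. The FNP of embryo 2 correlated best with the mandible of embryo 5, that of embryo 4 with embryo 1, and that of embryo 6 with embryo 7. The other FNPs correlated best with their own mandible. Litter was not removed before this check, so it cannot establish the pairing.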

Additional observations from a re-analysis of the deposited data

Results flagged for a closer look

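Within groups of 4 libraries, 9 of the 176 group values examined for named genes had 1 library standing far from the other 3 in TPM, which is about the 1 in 20 that chance gives. No reason for them was tested. Among guidance genes, *Sema3d* had 9.07 TPM in the mutant FNP of embryo 3, against 8.28 to 8.35 in the other mutant FNPs, and 9.99 TPM in the control FNP of embryo 1, against 8.68 to 8.85 in the other control FNPs. *Ephb3* had 72.7 TPM in the control FNP of embryo 8, against 64.4 to 65.5. *Sema4d* had 6.28 TPM in the mutant mandible of embryo 4, against 5.66 to 5.67. In the control mandible of embryo 2, *Sema4c* had 61.6 TPM, against 53.0 to 54.4, and *Unc5b* had 38.6 TPM, against 33.2 to 34.0. *Unc5b* also had 43.9 TPM in the mutant FNP of embryo 6, against 34.7 to 35.2. Among effector genes, *Dpysl4* had 30.1 TPM in the mutant mandible of embryo 3, against 23.3 to 23.9, and *Flrt2* had 57.7 TPM in the control mandible of embryo 7, against 47.1 to 48.8.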

How the results depend on the processing

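Of 142 counts of called genes recomputed under an alternative, 130 stayed within 1.5 times the reported count, and of 704 recomputed values of single genes 691 kept their direction and their side of the threshold. A count of 0 that stayed at 0 was taken as unchanged. This held for every member count by genotype within FNP or within mandible and for every interaction count. For genotype in both tissues the 0 called members became 1 within the first litter alone and ran from 0 to 1 with 1 embryo left out. The counts between tissues ran from 28 to 34 in all embryos, 11 to 18 in mutants and 12 to 17 in controls with 1 embryo left out, and fell to 12 in controls without the litter term. Without that term the calls over all genes in controls were 466 higher and 992 lower of 14159, against 878 and 1628 with it. The litter count of 23 ran from 14 to 29 with 1 embryo left out, and was 15 with tissues averaged per embryo. Among mutants the litter difference rested on 1 second-litter embryo. The genotype value of *Efnb1* ran from -7.78e-05 without embryo 3 to 0.13 with 1 embryo left out, and was -0.00041 against the controls with *Wnt1-Cre*. With embryo as a replicate block, 34 members were called between tissues, against 31 reported, with 28 in mutants against 20 and 18 in controls against 19, and these counts moved by less than 1.5 times. Over all genes the block gave 1290 higher and 1716 lower in mutants, against 892 and 1369. In controls it gave 738 higher and 1384 lower, against 878 and 1628. The block left 0 members for genotype and for the interaction and 21 for litter, where *Plxna3* and *Slit2* were lost, and over all genes it lowered the genotype calls to 113, against 195 reported. Precision is limited by 4 embryos per genotype, by controls of mixed genotype, by 1 mutant in the second litter and by the lack of read counts. The litter alternatives and the litter comparison itself were chosen after seeing the data.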
